A study of Danio rerio with 11 samples.

Results

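The gene rfx4 and its paralogs rfx1a, rfx2 and rfx3 were followed in RNA of 11 single zebrafish embryos. They were taken by name from the deposited tables, in which these 4 of 14473 genes carry the names. The embryos came from an incross of rfx4uw8013/+ fish, were raised at 29 °C to about 25 hours after fertilisation (hpf), and were sorted by their appearance. There were 6 mutants (replicates 1, 3, 4, 5, 6 and 7, genotype label rfx4 mutant) and 5 siblings (replicates 2, 3, 4, 7 and 8, genotype label control). An embryo sorted as a sibling may have carried 1 copy of the allele or none, which is not labelled. The protocol for growth gives zic2 heterozygous parents instead, and this disagreement was not settled here. The groups were named here by the titles and the genotype labels. Each library was made from 1 whole embryo, so fewer cells that express a gene and less RNA per cell cannot be told apart in any value given here.

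RFX proteins are transcription factors with a winged-helix DNA-binding domain that recognise a DNA element called the X-box, many of them as dimers. Rfx2 and Rfx3 are best known as activators of genes for building cilia, and rfx2 is needed for the cilia of the left-right organizer of the zebrafish embryo. Rfx4 is known from the mouse as a factor of the developing brain, where its loss disturbs the dorsal midline of the neural tube. Rfx1 is a widely expressed member of the family.

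The total count per library ranged from 16238368 to 21104811, and the counts of the 4 genes ranged from 142 to 1383 per embryo. The summed marker levels overlapped between the groups for every tissue examined. A sum is carried by its most abundant markers, so this overlap does not show that each marker was alike. The summed level of 18 neural progenitor markers (of 20 listed) was 3118 to 3939 CPM (counts per 1000000, on library sizes scaled by the TMM method) in mutants and 3288 to 3898 CPM in siblings. For 12 of 14 neuron markers the sums were 1136 to 1428 CPM and 1182 to 1405 CPM, for 9 of 11 muscle markers 5186 to 7717 CPM and 5827 to 7738 CPM, and for 7 of 8 blood markers 836 to 3978 CPM and 1795 to 2895 CPM. For 7 epidermis markers they were 29131 to 40289 CPM and 30609 to 40228 CPM, and for 6 of 8 yolk and liver plasma protein genes 6549 to 10641 CPM and 7694 to 15274 CPM. In fitted value, 6 of 6 yolk and liver genes (median log2 fold change −0.24), 7 of 7 epidermis markers (−0.08), 15 of 18 progenitor markers (−0.08) and 7 of 12 neuron markers (−0.07) were lower in mutants, as were 3 of 9 muscle markers (0.03) and 3 of 7 blood markers (0.02). In the edgeR test described below, 3 progenitor markers had an unadjusted p under 0.05, all lower, and 2 muscle markers, both higher. So had 1 neuron marker in each direction, and 0 blood, epidermis or yolk and liver genes. Over all genes the shares were 3.06% lower and 3.79% higher. The part of these differences in the results for the 4 genes was not tested beyond the progenitor and neuron markers. No tested marker was at 0 in every embryo, which was fixed in advance, since genes without counts were not tested.

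The library of mutant 6 stood apart on the chromosome that carries rfx2. Gene order was taken from the assembly GRCz12tu, which is not the build of the counts, so no coordinates are given. On that chromosome 568 tested genes were placed. Their median log2 deviation from the median of the other 10 embryos was −0.97 in mutant 6, a level of 51.1%. In mutant 6, 477 of the 568 genes (84.0%) were below all 10 other embryos. Among the 274 other medians of 1 chromosome in 1 embryo, the farthest from 0 was −0.25, in sibling 4 on a chromosome with none of the 4 genes. The remaining 273 medians ran from −0.06 to 0.09. The chromosome that carries rfx4 had medians of −0.03 to 0.02 in all 11 embryos. Chromosome copies were not counted in these data. The group difference of rfx2, its correlations with rfx4 and rfx1a, its neighbours and the numbers of genes called are therefore given below with and without that embryo. The rankings of likeness and the calls of single genes outside the family are given with mutant 6 included.

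**Figure D1:**
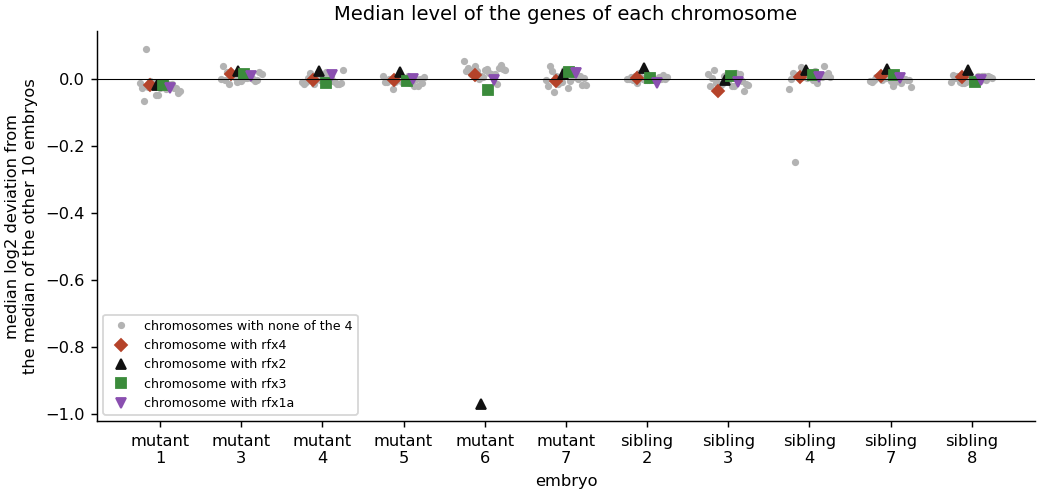
Median, over the genes of each of 25 chromosomes, of the log2 deviation of an embryo from the median of the other 10 embryos (vertical axis), for each of the 11 embryos (horizontal axis). Grey dots are chromosomes with none of the 4 genes, and symbols mark the chromosomes that carry them. The black triangle of mutant 6 lies at −0.97, and the grey dot of sibling 4 below the others at −0.25.

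The question put to each gene was whether its level differed between mutants and siblings. All 12301 genes that passed the low-count filter were tested together by the quasi-likelihood test of edgeR, and p-values were adjusted over all of them by the method of Benjamini and Hochberg at 0.05. That test called 0 genes (0.00%), and 843 genes had an unadjusted p under 0.05 (6.85%, with 3.06% lower and 3.79% higher in mutants). As alternative tests, DESeq2 called 44 genes (0.358%) and limma-voom called 2 (0.0163%). With sample weights, which gave mutant 6 the lowest weight of all embryos (0.405), voom called 32 (0.260%). Without mutant 6 the numbers of calls were 24 for edgeR, 79 for DESeq2, 20 for voom and 44 for voom with weights.

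Transcripts of rfx4 were present in every mutant. The deposited TPM values (transcripts per 1000000, scaled for gene length by the authors) had a lowest, median and highest level of 16.7, 19.2 and 27.3 in mutants. In siblings rfx4 was at 37.6, 27.7, 24.8, 24.9 and 33.2 TPM in replicates 2, 3, 4, 7 and 8. Mutants 1, 3, 4 and 5 lay below every sibling, and mutants 6 and 7, at 27.3 and 25.1 TPM, lay among the lower siblings. The spread within a group was far above counting error. The coefficient of variation of rfx4 CPM was 20.7% in mutants and 16.3% in siblings, where counting error alone would give 3.71% and 2.99%. The mean level was 41.9 ± 8.7 CPM (SD, n = 6 mutants) and 60.4 ± 9.8 CPM (SD, n = 5 siblings). The edgeR log2 fold change was −0.53 ± 0.14 (SE, edgeR adjusted p = 0.475), with a 95% interval of −0.85 to −0.21. An exact two-sided permutation test of log2 CPM over all splits of the embryos into 6 and 5 gave p = 0.0195, and p stayed between 0.0143 and 0.0397 when each embryo was left out in turn. The DESeq2 adjusted p was 0.10, and that of voom without weights 0.446. With sample weights voom gave −0.70 with an adjusted p of 0.0434. The highest weights went to mutants 5 (2.00) and 1 (1.36), lowest in rfx4 of the mutants, and siblings 2 (1.73) and 8 (1.66), highest of the siblings. Mutant 7, which lay among the siblings, had 0.556, and sibling 3 had 0.443. The part of the weights in this call was not tested. Without mutant 6 the DESeq2 adjusted p was 0.00359 at a log2 fold change of −0.61, while edgeR gave 0.142 at the same fold change. Leaving out a mutant of high rfx4 level had to widen the difference, so the values without mutant 6 are no independent support.

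Of the 4 genes, rfx2 alone separated the groups. Its level was 16.9, 19.2 and 20.7 TPM (lowest, median and highest) in mutants. In siblings it was 26.7, 23.9, 22.8, 22.3 and 25.8 TPM in replicates 2, 3, 4, 7 and 8. All 6 mutants were below all 5 siblings, as they were for 0.488% of all tested genes. The means were 47.2 ± 4.2 CPM (SD, n = 6) and 60.9 ± 3.3 CPM (SD, n = 5), so mutants were at 77.5% of the sibling level. The edgeR log2 fold change was −0.37 ± 0.07 (SE, edgeR adjusted p = 0.176), the 12th lowest unadjusted p of all genes tested. DESeq2 gave an adjusted p of 0.00193, voom with sample weights 0.0311 and voom without weights 0.150. The exact two-sided permutation p was 0.00216, the smallest that this design allows.

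The lowest rfx2 level of all 11 embryos was that of mutant 6, at 41.0 CPM, against 48.5 ± 3.3 CPM in the other 5 mutants (SD). This was 84.6% of their mean, a log2 difference of −0.24. The genes that share its chromosome and had a mean count of at least 100 (436 genes) were at a median of −0.98 in the same comparison, and 11 of them (2.52%) were less reduced than rfx2. Without mutant 6 the log2 fold change of rfx2 between the groups was −0.33 ± 0.06 (SE, edgeR adjusted p = 0.0812), and all 5 remaining mutants were still below all siblings. DESeq2 then gave an adjusted p of 0.00120, voom with weights 0.0336 and voom without weights 0.0856. The exact permutation p without mutant 6 was 0.00794 over 252 splits, the smallest that these splits allow. Since mutant 6 had the lowest rfx2 level, leaving it out could not undo the separation of the groups. That separation and this p without mutant 6 are therefore no independent support.

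The level of rfx3 did not differ beyond the spread within the groups. It was 8.33, 11.1 and 12.7 TPM (lowest, median and highest) in mutants. In siblings it was 10.2, 8.83, 11.5, 10.4 and 12.1 TPM in replicates 2, 3, 4, 7 and 8. The 2 extreme values of all 11 embryos both belonged to mutants, replicate 4 the lowest and replicate 7 the highest. The means were 19.4 ± 2.6 CPM (SD, n = 6) and 19.5 ± 2.2 CPM (SD, n = 5), and the log2 fold change was −0.01 ± 0.10 (SE, edgeR adjusted p = 0.990). Its 95% interval of −0.24 to 0.23 leaves room for a modest difference either way, and does not reach the estimates for rfx4 and rfx2.

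The remaining paralog, rfx1a, had higher fitted values in mutants. It was at 4.86, 6.64 and 7.36 TPM (lowest, median and highest) in mutants. In siblings it was at 5.60, 5.31, 4.34, 5.23 and 5.50 TPM in replicates 2, 3, 4, 7 and 8. In CPM, 5 of the 6 mutants lay above every sibling, and mutant 4 lay within the sibling range. All 6 mutants were above all 5 siblings for 0.455% of the tested genes, and rfx1a was not one of them. That share does not apply to 5 of 6 mutants, for which no share over all genes was counted. The means were 12.2 ± 1.5 CPM (SD, n = 6) and 10.1 ± 0.94 CPM (SD, n = 5). The log2 fold change was 0.28 ± 0.10 (SE, edgeR adjusted p = 0.674, DESeq2 adjusted p = 0.507). The exact two-sided permutation p was 0.0216, and it ranged from 0.00794 to 0.0571 when each embryo was left out. Counting error is a larger part of this gene's spread, 6.85% in mutants against an observed coefficient of variation of 11.9%. It did not pass over all genes by any test run.

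**Figure D2:**
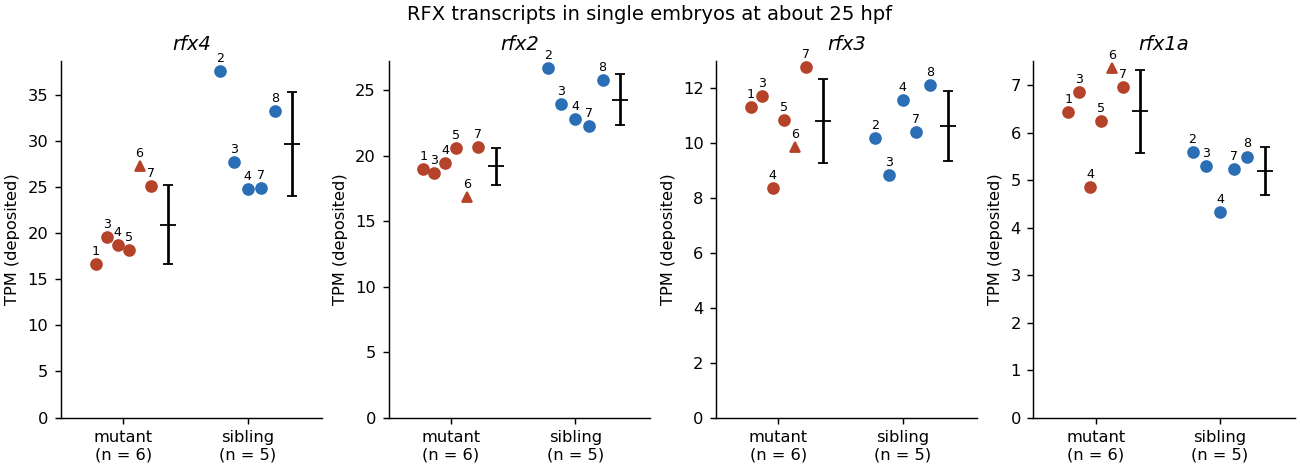
Deposited TPM of rfx4, rfx2, rfx3 and rfx1a in each embryo (vertical axes, from 0), by group, with replicate numbers beside the points, mutant 6 as a triangle, and bars for the mean ± SD. The groups do not overlap for rfx2, where the highest mutant is at 20.7 and the lowest sibling at 22.3, and they overlap for the other 3 genes.

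Since TPM is scaled for length, it orders the 4 genes within an embryo. In all 5 siblings the order was rfx4, rfx2, rfx3 and rfx1a, with rfx4 at 1.09 to 1.41 times the TPM of rfx2. In the mutants rfx4 and rfx2 were hard to tell apart. Their TPM ratio ran from 0.880 to 1.62 with a median of 1.01, and rfx4 was the higher in mutants 3, 6 and 7 and the lower in mutants 1, 4 and 5. The lower part of the order was fixed, since rfx2 was above rfx3 and rfx3 above rfx1a in all 11 embryos. The sum of the 4 genes was 57.4 ± 5.2 TPM in mutants (SD, 51.4 to 65.5) and 69.8 ± 8.0 TPM in siblings (SD, 62.8 to 80.1). Of this sum rfx4 made up 36.3 ± 4.8% in mutants and 42.3 ± 3.2% in siblings (SD), and rfx1a 11.2 ± 1.0% and 7.48 ± 0.67%. The rfx1a share was 9.46% to 12.1% in the mutants and 6.84% to 8.33% in the siblings, with no overlap. A share also depends on the other genes of the sum, and rfx4 and rfx2 had lower fitted values in mutants. The rfx1a TPM itself overlapped between the groups. These shares describe the embryos and were not tested.

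A count divided by its TPM follows the length that the authors' processing gave to the gene in that embryo. After scaling by the median of 5287 well-counted genes, all 44 quotients of the 4 genes across the 11 embryos were constant to within what rounding of the deposited numbers allows. The largest deviation was 0.165%, in rfx3. The length behind rfx2 was 1.23 times that of rfx4, which is why nearly equal counts of these genes in siblings gave a lower TPM for rfx2. With 1 fixed length per gene within rounding, the quotient carries no information on isoforms, and a test between the groups is void. Whether the rfx4 transcripts of the mutants carried a lesion or lacked an exon cannot be read from such values.

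A ratio of 2 genes within an embryo does not depend on how libraries are scaled. It asks whether the signed difference between the groups was the same for rfx4 and its paralog. A low ratio can come from a lower rfx4, a higher paralog or both. For this first pair the edgeR log2 fold changes had opposite signs, −0.53 for rfx4 and 0.28 for rfx1a. The ratio of rfx4 to rfx1a counts was 2.74, 3.43 and 4.07 (lowest, median and highest) in mutants. In siblings it was 7.09, 5.50, 6.04, 5.03 and 6.37 in replicates 2, 3, 4, 7 and 8. Every mutant was below every sibling, which was also so for the ratio of rfx4 to 10.7% of 9497 other genes. The mean log2 ratio was 1.76 ± 0.24 (SD, n = 6 mutants) and 2.58 ± 0.19 (SD, n = 5 siblings). The difference of −0.81 had an exact two-sided permutation p of 0.00216 and p = 0.00649 adjusted over the 3 ratios. With each embryo left out the adjusted p was 0.0143 to 0.0238. All these p-values stood, before adjustment, at the smallest that the splits allow. With fully separate groups that was fixed in advance, so the leave-one-out values are no further support. Set against the same 9497 genes, 3.41% gave a lower difference than rfx1a did, and the median difference was −0.53.

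The ratio of rfx4 to rfx3 counts overlapped between the groups. It was 1.64, 2.02 and 3.08 in mutants (lowest, median and highest) and 4.104, 3.48, 2.39, 2.66 and 3.04 in siblings 2, 3, 4, 7 and 8. The mean log2 ratio was lower by 0.53 in mutants (difference −0.53, exact permutation p = 0.0325, adjusted p = 0.0487), which lay at the median over all genes. This call was lost when any embryo other than mutant 6 or sibling 4 was left out, with adjusted exact permutation p-values up to 0.10. The ratio of rfx4 to rfx2 counts did not differ beyond its spread. It was 0.716, 0.820 and 1.32 in mutants (lowest, median and highest) and 1.14, 0.942, 0.887, 0.912 and 1.05 in siblings 2, 3, 4, 7 and 8. The log2 difference was −0.17 (exact permutation adjusted p = 0.335). Of the 9497 other genes, 98.9% gave a lower difference than rfx2 did. Mutant 6 had the highest ratio of all embryos, and without it the difference was −0.29 (exact permutation adjusted p = 0.0476). Leaving out the mutant of highest ratio had to widen the difference, so this value is no independent support.

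The difference in rfx4 was also set against markers of the tissue in which it is used. The mean log2 CPM of the 18 neural progenitor markers was 6.83 ± 0.13 (SD, n = 6 mutants) and 6.95 ± 0.10 (SD, n = 5 siblings). Their median log2 fold change was −0.08, against 0.0009 over all genes, with 15 fitted values lower and 3 higher. Among them fabp7a, a radial glia gene that encodes a fatty acid binding protein, was at −0.49 ± 0.11 (SE, DESeq2 adjusted p = 0.0164, edgeR adjusted p = 0.271), and gfap, which encodes a glial filament protein, at −0.26 ± 0.09. Relative to the mean of these markers rfx4 was lower in mutants by 0.42 on the log2 scale (difference −0.42, exact two-sided permutation p = 0.0238), with 5 of 6 mutants below every sibling and mutant 6 among the siblings. Without sibling 2, which had the highest rfx4 level, this was −0.33 with an exact permutation p of 0.0524. Relative to the neuron markers the difference was −0.52 (exact permutation p = 0.00866). The mean log2 CPM of those markers was 5.82 ± 0.12 in mutants and 5.84 ± 0.10 in siblings (SD). Both marker-relative tests reuse the rfx4 values of the same embryos, so they are no independent support for the rfx4 difference.

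**Figure D3:**
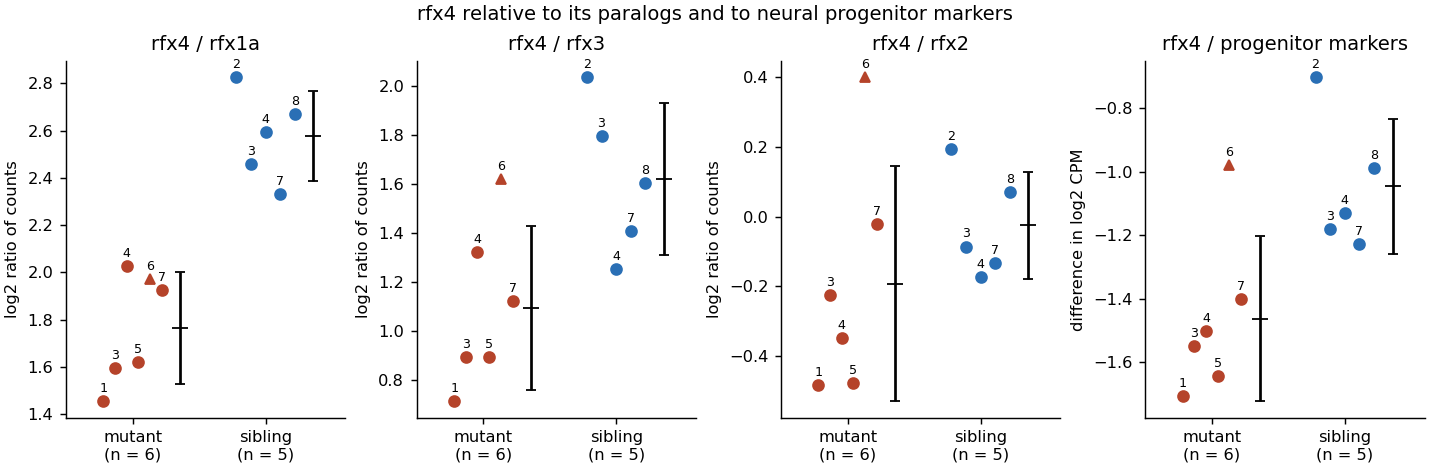
Log2 ratio of rfx4 counts to rfx1a, rfx3 and rfx2 counts, and rfx4 log2 CPM minus the mean log2 CPM of 18 neural progenitor markers (vertical axes), in each embryo by group, with replicate numbers, mutant 6 as a triangle and bars for the mean ± SD. The groups are separate for rfx1a, with the highest mutant at 2.03 and the lowest sibling at 2.33, and overlap in the other 3 panels.

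Pooled over the 11 embryos of both groups, rfx4 had its highest r with rfx2, but no pair of the 4 genes passed when adjusted over the 6 pairs. That order was not kept for deviations from the group means, where r was 0.571 with rfx1a and 0.151 with rfx2. Neither passed when adjusted. For rfx4 and rfx2 log2 CPM, Pearson's r was 0.702 (permutation p = 0.0182, adjusted p = 0.0859) and Spearman's rho 0.709 (permutation p = 0.0182, adjusted p = 0.109). Without mutant 1 and sibling 2, the embryos farthest from the median of rfx4, r was 0.560 (exact permutation p = 0.118). Within the 6 mutants r was −0.164 (exact permutation p = 0.726), and after taking deviations from the group means it was 0.151 (permutation p = 0.652). Without mutant 6, which had the highest rfx4 level of the mutants and the lowest rfx2 level of all embryos, r over the other 10 was 0.937 (permutation adjusted p = 0.00108). Leaving out an embryo of this kind had to raise r, so this value is no independent support. It was also taken over both groups, and both genes had lower fitted values in mutants. For the 5 siblings no coefficient is given, as for any set of fewer than 6 embryos, and in them the order by rfx4 and the order by rfx2 were the same.

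For rfx1a and rfx2, r was −0.656 (permutation p = 0.0286, adjusted p = 0.0859) and rho −0.645 (permutation p = 0.0364, adjusted p = 0.109). It was −0.530 without mutant 6 (permutation p = 0.114), −0.564 without mutants 6 and 7 (exact permutation p = 0.111) and −0.175 for deviations from the group means. For rfx4 and rfx1a the pooled r of −0.223 (permutation p = 0.510, rho −0.227 with p = 0.507) had the opposite sign to that of deviations from the group means, 0.571 (permutation p = 0.0657, adjusted p = 0.394), and to that within the mutants, 0.574 (exact permutation p = 0.240). No correlation of rfx3 with the others was detected. Its pooled r was 0.015 to rfx4, 0.060 to rfx2 and 0.155 to rfx1a (permutation p = 0.964, 0.858 and 0.649). The rho values were −0.109, 0.073 and 0.118 (permutation p = 0.753, 0.837 and 0.732). So few embryos cannot show that these levels are unrelated. Within the mutants r of rfx3 and rfx1a was 0.621 (exact permutation p = 0.186, adjusted p = 0.669). In the same embryos r of rfx3 was 0.087 to rfx4 and 0.214 to rfx2.

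**Figure D4:**
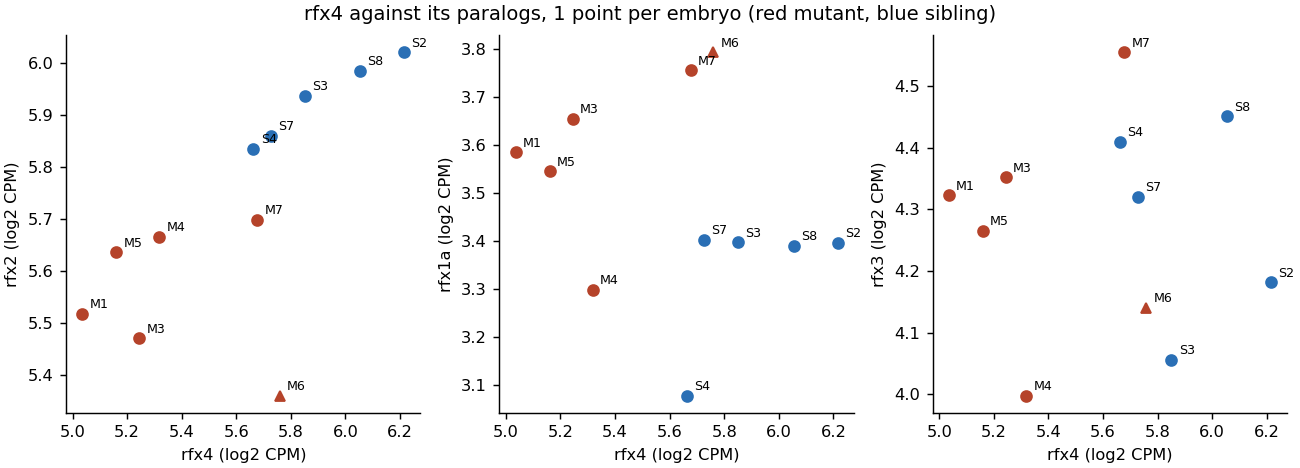
Log2 CPM of rfx2, rfx1a and rfx3 (vertical axes) against log2 CPM of rfx4 (horizontal axes), with 1 point per embryo, M for mutants in red and S for siblings in blue. Mutant 6, the triangle, lies apart from the other embryos in the panel of rfx2, at 5.76 for rfx4 and 5.36 for rfx2.

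The genes most like each member were ranked by Pearson's r of log2 CPM over all 11 embryos, among 9504 other genes with a mean count of at least 100. These coefficients describe the same libraries and carry no test. The 5 genes most like rfx4 were nkx2.2a (r = 0.933), which encodes a homeodomain factor of the ventral neural tube, ckbb (0.923), which encodes a brain type creatine kinase, spon1b (0.917), which encodes a secreted F-spondin of the floor plate, the forkhead gene foxa (0.907) and amer2 (0.903), which encodes a membrane recruiter of the APC protein. After taking deviations from the group means their r was still 0.842, 0.899, 0.847, 0.843 and 0.801. Because rfx4 was itself lower in mutants, a ranking over both groups favours genes that are lower in mutants too. The levels of these 5 genes were lower in mutants in fitted value. For nkx2.2a they were 14.8 ± 1.9 CPM (SD, n = 6 mutants) and 19.0 ± 1.3 CPM (SD, n = 5 siblings), and for spon1b 56.3 ± 15.6 CPM and 76.2 ± 7.7 CPM. None of the 5 had an adjusted p under 0.05 by edgeR (0.428 to 0.743) or by DESeq2 (0.0930 to 0.740). The genes of most opposite pattern were the annexin gene anxa3a (r = −0.876), znhit2 (−0.850) and imp4 (−0.847), which encodes a ribosome biogenesis protein. Of these anxa3a was higher in mutants by DESeq2, at 70.0 ± 18.7 CPM against 41.1 ± 6.8 CPM (DESeq2 adjusted p = 0.0196, edgeR 0.364). This end of the ranking likewise favours genes that are higher in mutants.

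The members were not among each other's closest genes. In the ranking for rfx4, rfx2 held place 116 of 9504, rfx3 place 4313 and rfx1a place 7296. Their r with rfx4 for deviations from the group means was 0.151, −0.017 and 0.571. The genes most like rfx2 were ubr7 (r = 0.956), the cell cycle gene ccna2 (0.941), which encodes a cyclin, and tmem47 (0.941), which lies on the same chromosome as rfx2 in GRCz12tu. Those most like rfx3 were ephb3a (0.914), which encodes an Eph receptor, ranbp3b (0.857) and the nucleoporin gene nup155 (0.840). Those most like rfx1a were ccdc120 (0.944), spry1 (0.914), which encodes a Sprouty inhibitor of receptor tyrosine kinase signalling, and the T-box gene tbx24 (0.900) of the presomitic mesoderm.

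The neighbours of rfx4 in gene order showed no shared difference. Of the 25 nearest tested genes on each side, 24 of 50 had lower fitted values in mutants (49.8% of all genes did). An unadjusted edgeR p under 0.05 was found for 0 of them (6.85% of all genes), and the median log2 fold change was 0.01. Among the 50 neighbours of rfx2, 40 were lower in fitted value (median −0.13). Without mutant 6 these were 25 of 50, with a median of 0.001. The number of rfx2 neighbours with an unadjusted edgeR p under 0.05 was 3 of 50 over all embryos, all lower (3.06% of all genes were lower at that p). Without mutant 6 it was 8 of 50, with 5 lower and 3 higher (6.78% of all genes in that fit). For the neighbours of rfx4 it was 1 of 50 without mutant 6. Lower fitted values in mutants were found over all embryos for 12 of 41 neighbours of rfx3 and 24 of 50 neighbours of rfx1a. An unadjusted edgeR p under 0.05 was found for 2 of 41 and 2 of 50 of them, against 6.85% of all genes.

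Genes that work with RFX factors in making cilia were counted as the wider pathway. In each of the lists below edgeR and DESeq2 called 0 genes at an adjusted p of 0.05. Of 12 listed transcriptional regulators of ciliated cells 7 were tested. Among these 1 had an unadjusted edgeR p under 0.05 (6.85% of all genes did), glis2b (0.33 ± 0.13 SE, edgeR adjusted p = 0.684). The best known of them, foxj1a, was at 21.4 ± 3.5 CPM (SD, n = 6 mutants) and 23.0 ± 0.72 CPM (SD, n = 5 siblings), and its paralog foxj1b was at 7.92 ± 7.09 CPM and 5.08 ± 0.86 CPM (SD). The foxj1b level was 22.3 CPM in mutant 6, 4.34 to 6.02 CPM in the other mutants and 4.203 to 6.44 CPM in siblings, and DESeq2 gave it no adjusted p. Of 28 tested genes for intraflagellar transport, the BBSome and the ciliary base, 7 were lower and 21 higher in fitted value (median 0.08), and 3 had an unadjusted p under 0.05, all higher (3.79% of all genes did). Among them were rpgrip1l, a gene of the ciliary transition zone (0.32 ± 0.10 SE, edgeR adjusted p = 0.613), and the transport gene ift80 (0.20 ± 0.08 SE). Of 29 tested genes of motile cilia 14 were lower and 15 higher in fitted value, with a median of 0.04. Of these spata18 (−0.39 ± 0.11) had an unadjusted p under 0.05 in the lower direction, and the tektin genes tekt4 (0.42 ± 0.16) and tekt2 in the higher. Over all genes the shares were 3.06% lower and 3.79% higher. Of 10 further RFX genes and RFX partner genes, rfxank, which encodes a partner of RFX5 at MHC class II genes, had a name match in the table, and with 3 to 15 counts per embryo it did not pass the filter. The others were not analysed here.

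**Figure D5:**
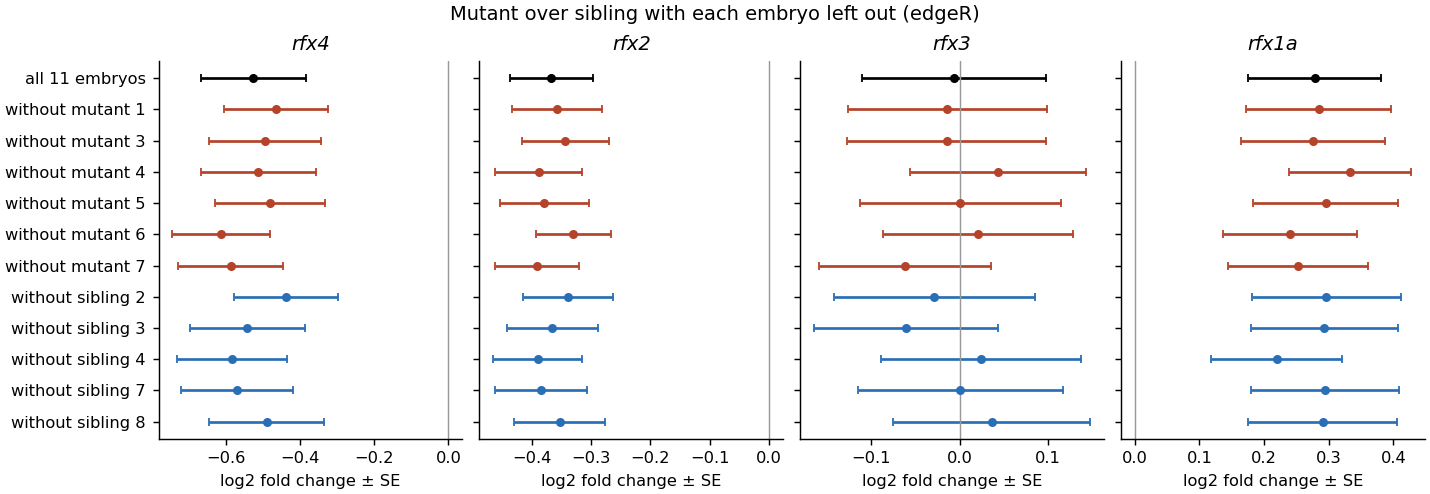
Log2 fold change of mutants over siblings by edgeR (horizontal axes, error bars are SE) for rfx4, rfx2, rfx3 and rfx1a, over all 11 embryos and with each embryo left out (vertical axis). The values stay below 0 for rfx4 (−0.61 to −0.44) and rfx2 (−0.39 to −0.33), stay above 0 for rfx1a (0.22 to 0.33) and lie on both sides of 0 for rfx3 (−0.06 to 0.04).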

How the data were processed

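RNA of 11 whole embryos was sequenced from TruSeq RNA v2 libraries (per the labels' protocols), which do not mark strand. The submitters' processing notes list RSEM 1.2.18, Bowtie 1.1.1 and CASAVA 1.8.2 and name Zv9 as the build, without their roles. The authors deposited counts for 14473 genes, whole numbers taken here as estimated counts of RSEM, and TPM values, scaled by the authors for length and depth. Reads shared by close paralogs could be split unevenly by such estimates.

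The groups were tested by the quasi-likelihood method of edgeR 4.0.16 (TMM, filterByExpr; R 4.3.3), with DESeq2 1.42.0 and limma 3.58.1 as alternatives. SE came from the F statistic, 95% intervals from SE at 9 residual degrees of freedom, and a prior count of 1 entered log2 CPM. Single values were tested by exact permutation, and correlations of 10 or 11 embryos by 100000 permutations (scipy 1.17.1). The tests were checked on simulated data. Of the 12301 tested names, 12194 matched the gene table of GRCz12tu. The rule for named genes took the 4 members, the 5 most and 3 least like rfx4, the 3 most like each paralog, and the 2 of lowest p in each ciliary list, of which 1 gene is not reported here. Beyond it, fabp7a, gfap, foxj1a, ift80 and tekt2 were named after their values were seen. The members and lists were chosen with earlier results of these data known. No 2 libraries of a group agreed within sampling noise (smallest chi-square per degree of freedom 8.03). Each library came from a separate animal.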

Additional observations from a re-analysis of the deposited data

Results flagged for a closer look

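Single embryos far from the rest of their group were looked for in 24 sets of values (the CPM and relative lengths of the 4 genes, the 3 ratios and the marker-relative level of rfx4, in each group), by the gap to the nearest embryo as a share of the group's range. Chance gives about 1 in 20 such sets, and 3 of 24 were found. The rfx1a level of sibling 4 was 8.39 CPM, while the other 4 siblings lay between 10.4 and 10.5 CPM. Sibling 4 was also the embryo with a low median on a chromosome that carries none of the 4 genes. Whether that moved with its rfx1a level was not tested. The relative length of rfx4 in sibling 4 was 0.000813 on the log2 scale, against −0.000124 to 0.000145 in the other siblings. That of rfx2 in mutant 6 was −0.000344, against 0.000103 to 0.000348 in the other mutants. Both length values lie within the rounding of the deposited numbers.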

How the results depend on the processing

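The direction of rfx4, rfx2 and rfx1a held under every alternative run. The calls of rfx4 and rfx2 moved with the test, and rfx1a was not called by any. By voom with sample weights rfx4 (−0.70) and rfx2 (−0.36) passed, and by DESeq2 rfx2 (−0.37). Neither gene passed by voom without weights, by the TPM fits or by any edgeR fit. With mutant 6 left out, DESeq2 called rfx4 (−0.61) and rfx2 (−0.33), and voom with weights called both (−0.73 and −0.35). These fits, like the gene order, were chosen after seeing the data. The value of rfx3 lay near 0 and changed sign with upper-quartile factors (0.0055), total counts (0.025), TPM at a pseudocount of 1 (0.019, with or without the filter) or 0.1 (0.020), and with mutant 6 left out in DESeq2 (0.023) and voom (0.026). Leaving out each embryo gave −0.61 to −0.44 for rfx4, −0.39 to −0.33 for rfx2, 0.22 to 0.33 for rfx1a and −0.062 to 0.044 for rfx3.

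The number of genes called by edgeR was 0, with 843 at an unadjusted p under 0.05, and 0 to 24 with each embryo left out (24 without mutant 6, 1 without sibling 7). It was 2 at an adjusted p of 0.1, 44 by DESeq2, 2 by voom, 32 by voom with weights, and without mutant 6 79, 20 and 44 by these tests. The cause of the differences between tests was not tested.

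The labels do not say whether the replicate numbers pair the embryos, and the few shared numbers cannot settle it. The 3 numbers shared by both groups (3, 4 and 7) had correlations of deviations of −0.308, −0.195 and −0.144. With the replicate number as a block edgeR called 0 genes and gave −0.33 for rfx4, −0.27 for rfx2, 0.28 for rfx1a and 0.043 for rfx3, a change of sign for rfx3, with 289 genes at an unadjusted p under 0.05. In that fit the group difference rests on the embryos of the 3 shared numbers, and the other embryos add nothing to it.

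With each embryo left out, the log2 ratio difference was −0.87 to −0.75 for rfx4 to rfx1a, −0.63 to −0.42 for rfx4 to rfx3 and −0.29 to −0.11 for rfx4 to rfx2, and rfx4 relative to progenitor markers was −0.51 to −0.33. The r of rfx4 and rfx2 was 0.613 to 0.937, the highest without mutant 6, and −0.164 within the mutants. That of rfx4 and rfx1a turned to 0.574 within the mutants and 0.571 for deviations from group means. That of rfx4 and rfx3 turned to −0.017 for deviations and ranged from −0.154 to 0.138 with each embryo left out. That of rfx1a and rfx3 ranged from −0.104 to 0.428, and that of rfx2 and rfx3 from −0.109 to 0.231, with −0.0060 without the 2 farthest embryos. With 142 to 248 counts per embryo, rfx1a has the largest counting error of the 4 genes.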
